A study of Mus musculus with 12 samples.

Results

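Voltage-gated sodium channels open on depolarisation and carry the inward current that starts and propagates the action potential. Each channel is a large pore-forming alpha subunit, encoded in the brain mainly by Scn1a, Scn2a, Scn3a and Scn8a, which is joined by smaller beta subunits that shift gating and act in cell adhesion. The genes described here are these 4 alpha subunit genes and the beta subunit genes Scn2b, Scn3b and Scn4b, 7 of the 14317 genes listed. They were chosen by name, with earlier results of these data known, and all 7 were found and passed the filter on low values.

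The mRNA came from brain tissue described as the ischemic penumbra of the cortex on the operated side in male C57BL/6J mice, 8 weeks old, with no genetic change named for either group. In the 6 tMCAO/R mice a suture occluded the artery for 60 min and was withdrawn for 24 h of reperfusion, whereas the 6 Sham mice were the controls without occlusion. Each library stood for 1 mouse. Levels are given in FPKM, the fragments of a gene scaled by its length and by the fragments of the library, as the authors deposited them.

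Depth was alike, with 13057288 to 14988265 fragments per tMCAO/R library, against 13496273 to 15808212 per Sham library. The library of tMCAO/R mouse 4 stood apart from its group, with a median Spearman correlation of 0.908 with the other tMCAO/R libraries, against 0.964 to 0.974 for those libraries. The genes of chromosome Y Ddx3y, Eif2s3y, Kdm5d and Uty were read in all 6 tMCAO/R libraries (Ddx3y at 5.49 to 12.1 FPKM) and were listed at 0 in all 6 Sham libraries, although only male mice were described. This difference runs along the groups, so it and the effect of tMCAO/R cannot be told apart in any result below. Regional markers also differed. Of 12 markers of striatal projection neurons 11 rose and none fell, for example the adenylyl cyclase gene Adcy5 with 17.2 to 112 FPKM in tMCAO/R mice, against 11.1 to 15.9 FPKM in Sham mice. Other striatal markers overlapped between the groups, among them Penk with 17.5 to 181 FPKM in tMCAO/R mice, against 11.3 to 19.6 FPKM in Sham mice. Of 10 markers of hippocampal neurons none rose and 8 fell, among them the dentate gene C1ql2, and together they had 53.3 to 82.7 FPKM in tMCAO/R mice, against 198 to 301 FPKM in Sham mice. Of the cortical layer markers, which match the tissue named, 9 of 10 were tested, 6 rose and 1 fell, with 102 to 179 FPKM in all in tMCAO/R mice, against 99.9 to 148 FPKM in Sham mice. Of 8 oligodendrocyte markers none rose and 6 fell, with 304 to 563 FPKM in all in tMCAO/R mice, against 614 to 1448 FPKM in Sham mice. Of 8 microglia markers 1 rose and 4 fell, with 40.7 to 118 FPKM in tMCAO/R mice, against 96.3 to 125 FPKM in Sham mice. For comparison with these marker lists, 17.8% of all genes tested rose and 17.8% fell. Mitochondrial transcripts took 8.68% of the fragments in tMCAO/R mouse 4 and 2.85% to 4.66% in the other tMCAO/R mice, against 5.29% to 8.50% in the Sham mice. The part of these differences in the results for the subunit genes was not tested beyond the values given beside them. In bulk tissue, fewer cells of a type and less RNA per cell cannot be told apart.

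The beta4 subunit, encoded by Scn4b, ends in a short tail inside the cell that can block the open pore and is known for the resurgent current of cerebellar Purkinje neurons. Its coding stretch is shown because Scn4b had the largest change of the 7 genes. The bases were taken from the GENCODE M39 transcript, 5′ to 3′ on the plus strand, and lie in exons 4 and 5 of 5 within chr9:45060641-45061715 of GRCm39. The stretch is joined across the intron, and the capitals mark the 42 bases that encode the 14 residues of the blocking tail.
Scn4b: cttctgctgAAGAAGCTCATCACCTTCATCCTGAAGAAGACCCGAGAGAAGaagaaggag

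On GRCm39 the alpha genes Scn3a (chr2:65287462-65397971, minus strand), Scn2a (chr2:65451102-65597795, plus strand) and Scn1a (chr2:66101122-66271572, minus strand) lie in a cluster, with a gap of 53130 bases between Scn3a and Scn2a. Scn8a lies alone (chr15:100767739-100943819, plus strand). The 3 beta genes are all on the plus strand of chromosome 9, Scn3b at chr9:40179378-40203052, Scn2b at chr9:45029080-45041368 and Scn4b at chr9:45049595-45065452. Scn2b and Scn4b are neighbours with 8226 bases between them. The 50-base words of the canonical transcript of each member were sought in all transcripts of the other sodium channel genes. Of these words, 5.48% for Scn1a, 7.89% for Scn2a and 8.41% for Scn3a also occurred in another gene. None did for the canonical transcripts of Scn8a and the 3 beta genes. Other transcripts of Scn8a did hold words of Scn2a and Scn3a, so Scn8a as a gene is not free of shared words. Long non-coding genes on the opposite strand overlap 101 and 416 exonic bases of Scn1a and 107 exonic bases of Scn4b, and since the strand setting of the counting is not given in the sources used here, their reads cannot be told apart from those of the members.

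The first question was which subunit genes differed between tMCAO/R and Sham mice. Scn1a, Scn2a and Scn4b rose, Scn3b fell, and Scn3a, Scn8a and Scn2b did not pass the test. Rose and fell are used for an adjusted p below 0.01 in limma on log2(FPKM + 1), adjusted over the 11743 genes tested, and a DEG had in addition a log2FC over 2 in size. Thus 3 of 7 members rose and 1 fell, where 17.8% of all genes tested rose and 17.8% fell. The values of the groups did not overlap for 3 members that were higher and 1 that was lower in tMCAO/R mice, against 13.8% and 13.2% of all genes tested. Scn4b was the only DEG among the members, and 0.247% of all genes tested were DEGs with a higher level in tMCAO/R mice. The median log2FC of the 7 members was 0.40 and that of all genes tested was -0.01. In limma-voom on whole fragments the same 3 members rose and Scn3b fell, where 16.3% of all genes tested rose and 16.5% fell.

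**Figure D1:**
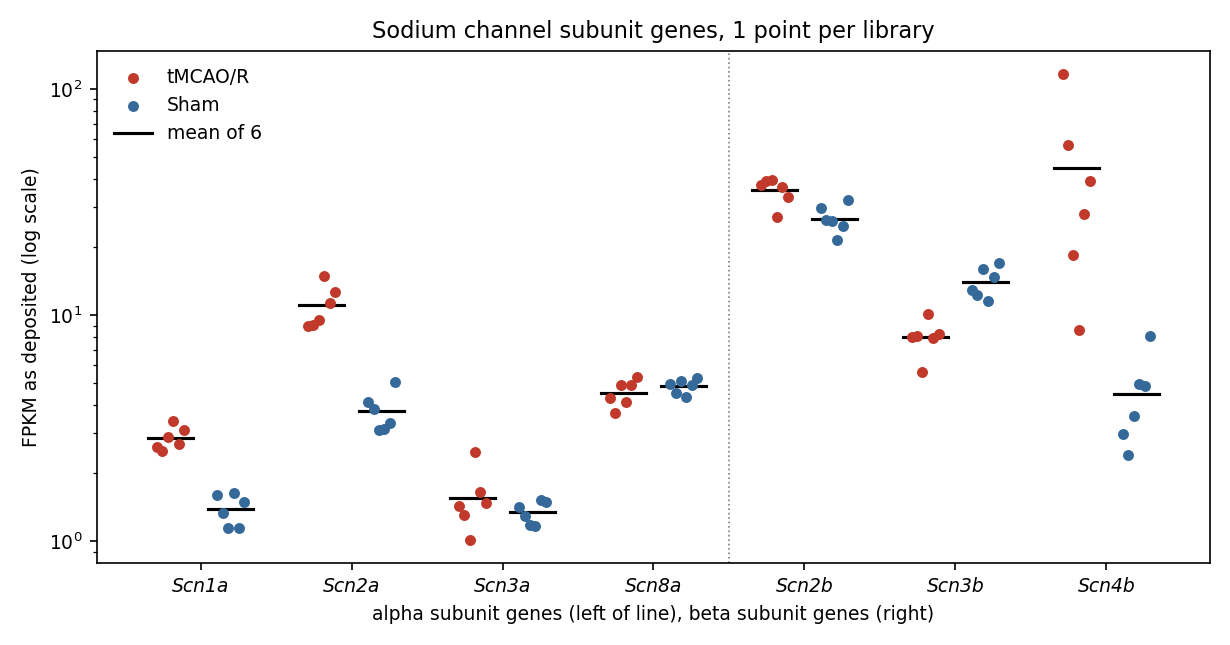
FPKM of the 7 subunit genes on a log axis, 1 point per library in the order of the mouse numbers, with tMCAO/R mice left of Sham mice and black lines at the means of 6. Scn1a, Scn2a and Scn4b lie above and Scn3b lies below the Sham mice with no overlap, and Scn4b spreads from 8.58 to 117 FPKM within tMCAO/R mice.

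Among the alpha subunits, Scn2a, which encodes Nav1.2 of the axon initial segment and of unmyelinated axons of excitatory neurons, had the largest change. Its level was 8.93 to 14.9 FPKM in tMCAO/R mice (median 10.4) and 3.12 to 5.04 FPKM in Sham mice (median 3.59). Every tMCAO/R mouse lay above every Sham mouse, and mouse 4 had the highest value. The mean was 11.1 ± 2.38 FPKM in tMCAO/R mice and 3.77 ± 0.745 FPKM in Sham mice (SD, n = 6 each), a ratio of 2.93 (log2FC 1.33, standard error 0.13, adjusted p = 3.2e-06, limma).

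Scn1a encodes Nav1.1, the main channel of fast-spiking inhibitory interneurons. It had 2.50 to 3.41 FPKM in tMCAO/R mice (median 2.80) and 1.14 to 1.64 FPKM in Sham mice (median 1.42), again with no overlap. The ratio of the means was 2.06 (log2FC 0.70, standard error 0.09, adjusted p = 1.7e-05, limma). Because Scn1a is low in FPKM, the added 1 FPKM shrinks its log2FC, and on the recovered fragments, 1475 to 1853 per library in tMCAO/R mice, against 685 to 1052 in Sham mice, limma-voom gave a log2FC of 1.05. Of 8 markers of the parvalbumin interneurons in which Scn1a is known to be high, 3 rose and 1 fell. Among all genes tested 17.8% rose and 17.8% fell. One of the 3 markers that rose, Tac1 (log2FC 1.90), is also among the striatal markers. The marker that fell was Pvalb, the calcium-binding protein gene that names these cells, with 16.9 ± 8.29 FPKM in tMCAO/R mice and 34.7 ± 8.81 FPKM in Sham mice (SD, n = 6 each), while the potassium channel gene Kcnc1 rose (log2FC 0.36) and the receptor gene Erbb4 rose (log2FC 0.80).

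Scn8a encodes Nav1.6, the channel of mature initial segments and nodes of Ranvier. It had 3.70 to 5.31 FPKM in tMCAO/R mice (median 4.59) and 4.37 to 5.29 FPKM in Sham mice (median 4.93). The groups overlapped, with 3 tMCAO/R mice below and 1 above every Sham mouse. The log2FC was -0.09 with a 95% interval of -0.27 to 0.10 (adjusted p = 0.43, limma). Scn3a encodes Nav1.3, which is highest in the embryonic brain. It had 1.02 to 2.48 FPKM in tMCAO/R mice (median 1.46) and 1.17 to 1.52 FPKM in Sham mice (median 1.36), the highest being tMCAO/R mouse 4. The log2FC was 0.11 with a 95% interval of -0.12 to 0.34 (adjusted p = 0.43, limma). With 434 to 920 fragments per library in tMCAO/R mice, against 450 to 639 in Sham mice, Scn3a was the least read of the 4 alpha genes. Changes of Scn8a and Scn3a within these intervals remain possible, and the smallest change that could be detected was not computed.

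Among the beta subunits, Scn4b had the largest rise and the widest spread. It had 117, 56.9, 18.4, 8.58, 27.9 and 39.3 FPKM in tMCAO/R mice 1 to 6, and 3.00, 2.41, 3.59, 4.97, 4.85 and 8.06 FPKM in Sham mice 1 to 6. The groups did not overlap, but the lowest tMCAO/R mouse (mouse 4) lay close to the highest Sham mouse (mouse 6), and the tMCAO/R mice themselves ranged from 558 to 8621 fragments. The means were 44.6 ± 39.1 FPKM in tMCAO/R mice and 4.48 ± 2.02 FPKM in Sham mice (SD, n = 6 each), a ratio of 9.96 (log2FC 2.70, standard error 0.46, adjusted p = 2.8e-04, limma). Without tMCAO/R mouse 1 the ratio was 6.74, and without tMCAO/R mouse 4 it was 11.6, and Scn4b passed the DEG thresholds in each case.

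Scn3b encodes beta3, a subunit that binds the alpha subunit without a disulfide bond and is known from many forebrain neurons. It had 5.62 to 10.1 FPKM in tMCAO/R mice (median 8.04) and 11.6 to 17.0 FPKM in Sham mice (median 13.8), and every tMCAO/R mouse lay below every Sham mouse. The mean was 8.00 ± 1.43 FPKM in tMCAO/R mice and 14.1 ± 2.17 FPKM in Sham mice (SD, n = 6 each), a ratio of 0.568 (log2FC -0.75, standard error 0.13, adjusted p = 2.5e-04, limma).

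Scn2b encodes beta2, which is linked to the alpha subunit by a disulfide bond, as beta4 is. It had 27.2 to 39.8 FPKM in tMCAO/R mice (median 37.3) and 21.5 to 32.2 FPKM in Sham mice (median 26.2). The groups overlapped through tMCAO/R mouse 4, the lowest of its group, which lay below Sham mice 1 and 6. The log2FC was 0.40 with a 95% interval of 0.15 to 0.65, and the adjusted p of 0.0107 (limma) just missed the threshold of 0.01. Scn2b passed it without tMCAO/R mouse 4 (adjusted p = 8.3e-04, limma) and without Sham mouse 6 (adjusted p = 0.0056, limma). Without tMCAO/R mouse 4, 4 of 7 members thus rose, where 22.4% of all genes tested did.

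**Figure D2:**
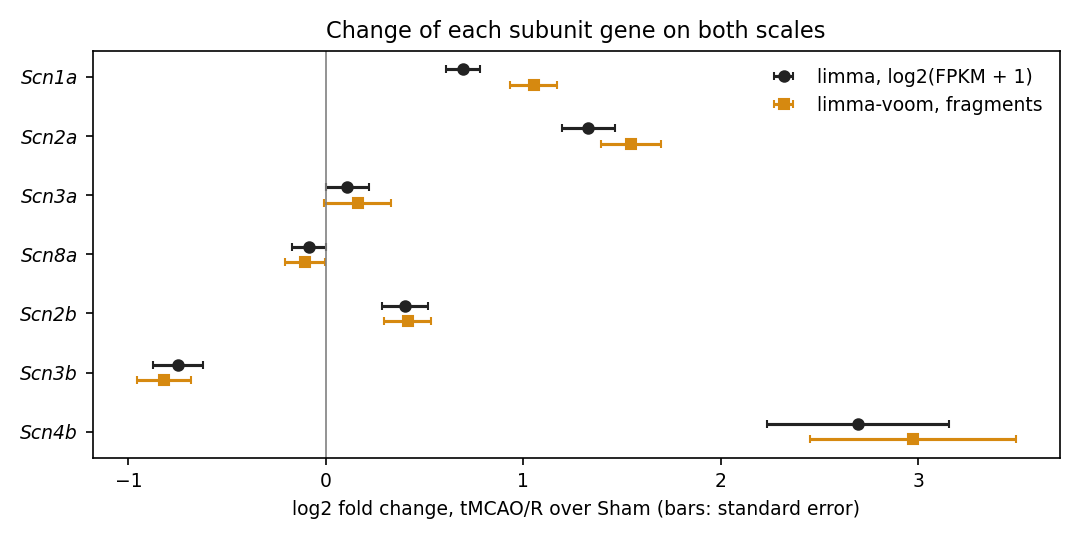
Log2 fold change of tMCAO/R over Sham for each subunit gene with its standard error, on log2(FPKM + 1) with limma (black circles) and on recovered fragments with limma-voom (orange squares). Scn4b is farthest to the right (2.70 and 2.97), Scn3b lies left of 0 (-0.75 and -0.82), and Scn1a moves most between the scales (0.70 and 1.05).

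The next question was whether members changed by unequal amounts. For each of the 21 pairs, the difference of log2(FPKM + 1) between the 2 genes in each library was compared between the groups with a two-sided exact permutation test, for which the smallest possible p is 0.00216, and adjusted over the 21 pairs. An adjusted p below 0.05 was reached by 17 of 21 pairs. The same members recur across these pairs, so the pairs are not independent, and a strongly changed member enters many of them. Among all genes tested 17.8% rose and 17.8% fell, so pairs of other genes can differ as well. The share of such pairs that would pass was not computed, so the count does not set these members apart from other genes. Scn2a gained on Scn1a by 0.63 and on Scn8a by 1.42 on the log2 scale (both adjusted p = 0.0030, exact permutation test). Scn3b lost against each of the other 6 members, by 3.45 against Scn4b and by 1.15 against Scn2b. The neighbours Scn2b and Scn4b differed as well, Scn4b gaining by 2.30 (adjusted p = 0.0030, exact permutation test). The pairs that did not reach the threshold were Scn1a with Scn2b (difference 0.29, adjusted p = 0.10), Scn2a with Scn4b (-1.37, adjusted p = 0.063), Scn3a with Scn8a (0.19, adjusted p = 0.20) and Scn3a with Scn2b (-0.29, adjusted p = 0.18), all by the exact permutation test. Without tMCAO/R mouse 4 the pairs Scn2a with Scn4b (-1.82) and Scn3a with Scn2b (-0.46) also reached it (both adjusted p = 0.0025, exact permutation test). With 0.1 FPKM added in place of 1 FPKM, Scn1a with Scn2b reached it as well (0.59, adjusted p = 0.013, exact permutation test). Scn1a with Scn2a then differed by -0.52 (adjusted p = 0.0061, exact permutation test), against -0.63 with 1 FPKM.

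Levels of different genes can be compared only per length, and the length matters here. The lengths implied by the deposited FPKM were 3.59 times the merged exon length of GENCODE M39 for Scn1a, 2.57 times for Scn2a, 2.12 times for Scn3a, 4.24 times for Scn8a, 1.85 times for Scn2b, 2.82 times for Scn3b and 0.980 times for Scn4b. FPKM on merged exon length, an alternative chosen after seeing the data, is therefore given beside the deposited FPKM for levels, sums and shares, while the fold change of a single gene is not touched by its length except through the added 1 FPKM.

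On merged exon length, the order in tMCAO/R mice was Scn2b (66.0 ± 8.72 FPKM), Scn4b (43.7 ± 38.3), Scn2a (28.4 ± 6.12), Scn3b (22.5 ± 4.03), Scn8a (19.3 ± 2.51), Scn1a (10.3 ± 1.23) and Scn3a (3.32 ± 1.05; SD, n = 6). In Sham mice it was Scn2b (49.5 ± 6.93 FPKM), Scn3b (39.6 ± 6.11), Scn8a (20.6 ± 1.48), Scn2a (9.69 ± 1.91), Scn1a (5.00 ± 0.788), Scn4b (4.39 ± 1.98) and Scn3a (2.86 ± 0.327; SD, n = 6). In tMCAO/R mice the ranges of neighbours in this order overlapped from Scn2b down to Scn8a, although Scn2a exceeded Scn3b in all 6 libraries, and in Sham mice they overlapped between Scn2b and Scn3b and from Scn1a down to Scn3a. With the deposited FPKM the order of the means differed: Scn4b stood above Scn2b in tMCAO/R mice, and above Scn2a and Scn1a in Sham mice.

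The alpha transcripts summed to 20.0 ± 3.26 FPKM in tMCAO/R mice and 11.4 ± 1.13 FPKM in Sham mice (SD, n = 6 each), a ratio of 1.76, which was 1.61 on merged exon length. Scn2a made up 54.9% ± 3.00 of this sum in tMCAO/R mice and 32.9% ± 3.26 in Sham mice, while Scn8a made up 23.0% ± 3.45 in tMCAO/R mice and 42.9% ± 3.27 in Sham mice (SD, n = 6 each). Both differences, and that of Scn3a with 7.71% in tMCAO/R mice and 11.9% in Sham mice, had an adjusted p of 0.0035 over 8 such values (two-sided exact permutation test). The alpha shares of a library add up to the whole, so they are not independent, and a higher share of Scn2a lowers the others. The levels of Scn8a (log2FC -0.09) and Scn3a (0.11) did not pass the test, so their lower shares do not show a loss of these transcripts. On merged exon length Scn2a led in tMCAO/R mice and Scn8a led in Sham mice too, with 46.0% for Scn2a and 31.7% for Scn8a in tMCAO/R mice, against 25.2% for Scn2a and 54.2% for Scn8a in Sham mice. The share of Scn3a on this length was 5.36% in tMCAO/R mice and 7.50% in Sham mice (adjusted p = 0.010, exact permutation test). The share of Scn1a was 14.4% in tMCAO/R mice and 12.3% in Sham mice (adjusted p = 0.066, exact permutation test), and 16.9% in tMCAO/R mice and 13.1% in Sham mice on merged exon length (adjusted p = 0.012, exact permutation test).

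Of the 3 beta members, Scn4b made up 43.5% ± 19.1 in tMCAO/R mice and 9.73% ± 3.46 in Sham mice, and Scn3b made up 10.8% ± 5.92 in tMCAO/R mice and 31.1% ± 2.53 in Sham mice (SD, n = 6 each, both adjusted p = 0.0035, two-sided exact permutation test). On merged exon length the same shares were 28.9% in tMCAO/R mice and 4.64% in Sham mice for Scn4b, and 18.5% in tMCAO/R mice and 42.4% in Sham mice for Scn3b. The share of Scn2b was 45.7% in tMCAO/R mice and 59.2% in Sham mice (adjusted p = 0.072), but 52.6% in tMCAO/R mice and 53.0% in Sham mice on merged exon length (adjusted p = 0.92, both exact permutation tests). Without tMCAO/R mouse 4 the deposited share of Scn2b differed by -16.1 percentage points (adjusted p = 0.043, exact permutation test). These shares are of the sum over Scn2b, Scn3b and Scn4b alone and do not describe all beta subunits of the tissue. They too add up to the whole in each library and are not independent.

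**Figure D3:**
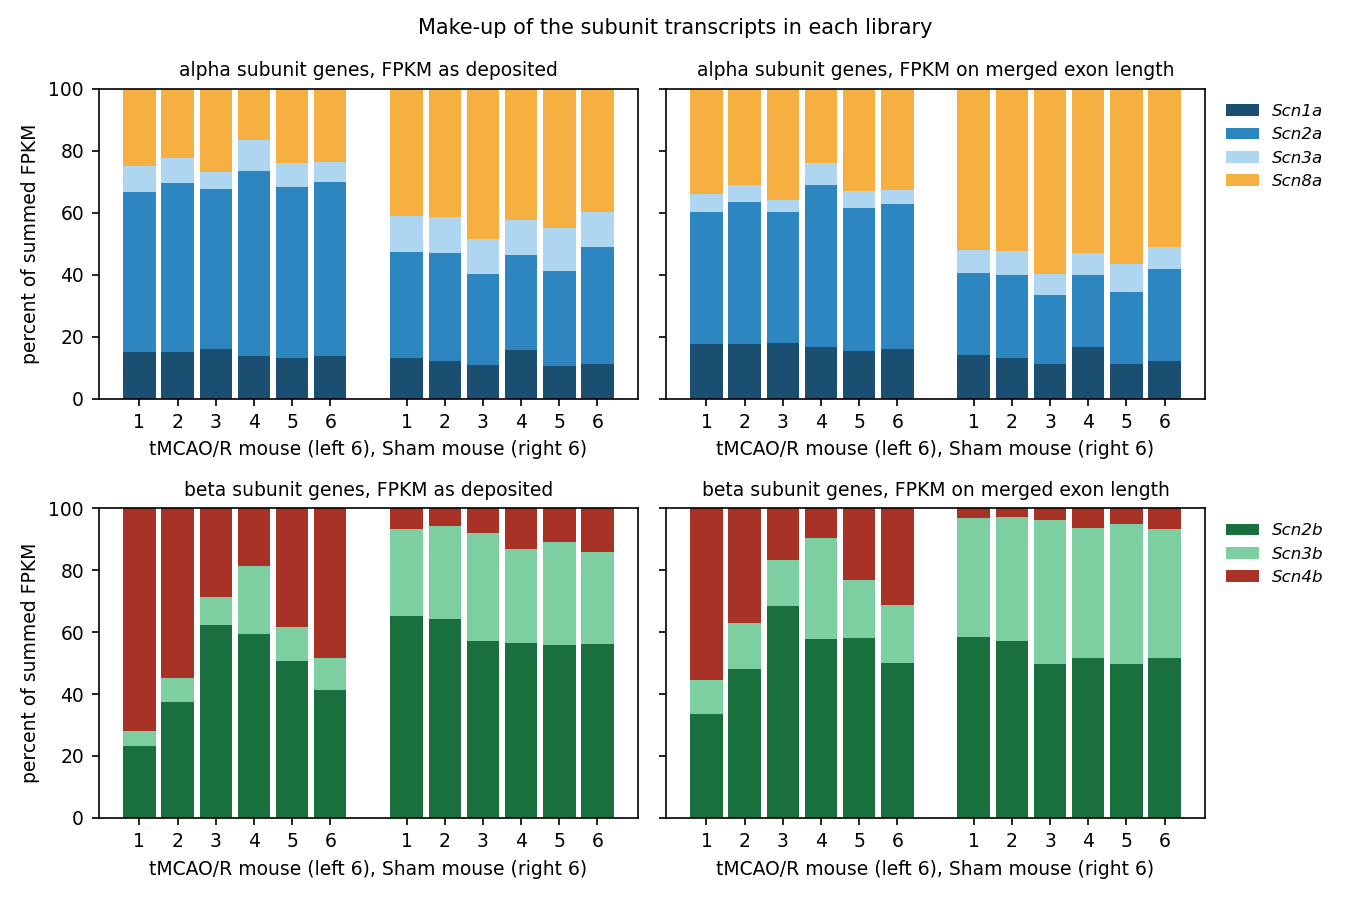
Percent of the summed FPKM of the 4 alpha genes (top) and of the 3 beta genes (bottom) taken by each gene, 1 bar per library with tMCAO/R mice left of Sham mice, from deposited FPKM (left) and FPKM on merged exon length (right). Scn2a takes the largest alpha share in each tMCAO/R mouse and Scn8a in each Sham mouse on both lengths, and the Scn4b share runs from 71.9% in tMCAO/R mouse 1 down to 18.7% in tMCAO/R mouse 4 with the deposited FPKM.

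Scn4b is also known as a gene of high expression in the striatum, so its levels were set beside the 12 striatal markers. These markers together had 98.8 to 752 FPKM in tMCAO/R mice and 55.5 to 75.8 FPKM in Sham mice. In tMCAO/R mice the markers were highest in mouse 1 (752 FPKM) and lowest in mice 3 (98.8 FPKM) and 4 (111 FPKM), which were also the mice with the highest and the lowest Scn4b. Within the 6 tMCAO/R mice, Scn4b and the mean striatal marker level had Pearson's r = 0.91 (exact permutation p = 0.015) and Spearman's rho = 0.89 (exact permutation p = 0.033), and r = 0.95 without the 2 mice farthest from the median marker level. Over the 28 such relations computed, 7 members with 2 marker lists in 2 groups, this had an adjusted p of 0.21 (exact permutation) and did not pass. Within the Sham mice the same relation had r = 0.68 (exact permutation p = 0.17, adjusted p = 0.44) and rho = 0.09 (exact permutation p = 0.92), and r = -0.25 without the 2 farthest mice.

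**Figure D4:**
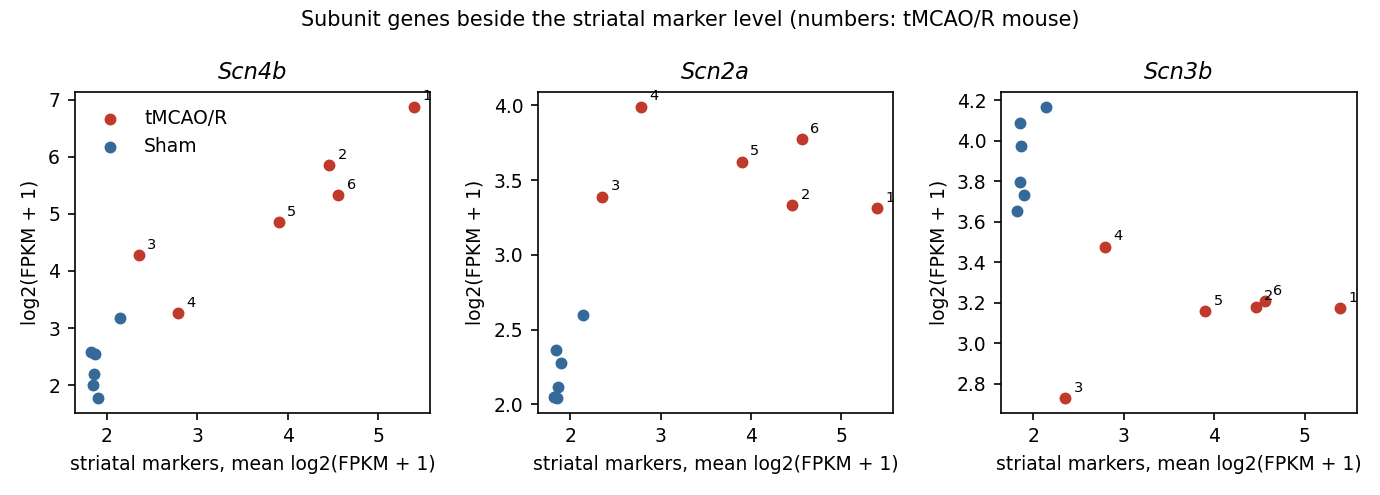
Log2(FPKM + 1) of Scn4b, Scn2a and Scn3b against the mean log2(FPKM + 1) of 12 striatal markers, 1 point per library, red for tMCAO/R mice (numbered) and blue for Sham mice. Among tMCAO/R mice Scn4b is highest in mouse 1, which has the highest marker level, whereas Scn2a and Scn3b are both highest in mouse 4, where the markers sum to 111 FPKM.

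Measured against the striatal markers of the same library, the rise of Scn4b was smaller. Scn4b minus the mean marker level was 1.17 ± 0.531 in tMCAO/R mice and 0.48 ± 0.431 in Sham mice on the log2 scale (SD, n = 6 each), a difference of 0.69 (adjusted p = 0.045 over 14 values, exact permutation test). With 0.1 FPKM added in place of 1 FPKM the difference was 0.46 and did not pass (adjusted p = 0.23, exact permutation test). Scn2a minus the striatal markers differed by -0.68 (adjusted p = 0.25, exact permutation test), and Scn1a by -1.31 (adjusted p = 0.069, exact permutation test), which passed without tMCAO/R mouse 4 (-1.57, adjusted p = 0.018, exact permutation test). The other members were lower in tMCAO/R mice on this measure, Scn2b by 1.60 (adjusted p = 0.020), Scn3a by 1.90, Scn8a by 2.09 and Scn3b by 2.75 (each adjusted p = 0.0043, exact permutation test). The mean marker level itself was 3.91 ± 1.15 in tMCAO/R mice and 1.90 ± 0.118 in Sham mice (SD, n = 6 each), a difference of 2.00. A member at an unchanged level is therefore lower on this measure, so these differences do not show a fall of Scn2b, Scn3a or Scn8a.

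The level of general neuronal markers was set beside the members in the same way. Of 14 general neuronal markers 5 rose and 1 fell (8 rose without tMCAO/R mouse 4), and their summed level was 1306 to 1662 FPKM in tMCAO/R mice and 1189 to 1431 FPKM in Sham mice. Among all genes tested 17.8% rose and 17.8% fell, and 22.4% rose without tMCAO/R mouse 4. The synaptic gene Snap25 had 335 ± 74.1 FPKM in tMCAO/R mice and 303 ± 21.4 FPKM in Sham mice (SD, n = 6 each) and did not pass the test, whereas Gad2, which makes the transmitter GABA, rose (log2FC 1.63). Relative to the mean of these markers, Scn4b was higher in tMCAO/R mice by 2.37, Scn2a by 1.00 and Scn1a by 0.37 on the log2 scale (adjusted p = 0.0043 for Scn4b and Scn2a and 0.019 for Scn1a, two-sided exact permutation test over 14 values). On the same measure Scn3b was lower by 1.07 and Scn8a by 0.41 (both adjusted p = 0.0043), and Scn3a (-0.22, adjusted p = 0.17) and Scn2b (0.07, adjusted p = 0.33) did not pass, all by the exact permutation test. Without tMCAO/R mouse 4 Scn3a did pass (-0.33, adjusted p = 0.0038, exact permutation test). Over all 12 libraries, the mean marker level itself was 6.16 ± 0.0716 in tMCAO/R mice and 5.84 ± 0.124 in Sham mice (SD, n = 6 each). This difference of 0.33, to which Gad2 added, enters each value relative to these markers, also those of Scn8a and Scn3a. Across the 6 Sham mice Scn2b followed the level of the general neuronal markers (r = 0.96, exact permutation p = 0.0014, the smallest that 720 pairings can give, adjusted p = 0.039 over 28 relations, and rho = 1, exact permutation p = 0.0028), with r = 0.86 without the 2 farthest mice. Across the 6 tMCAO/R mice the same relation had r = 0.69 (exact permutation p = 0.12, adjusted p = 0.38) and rho = 0.54 (exact permutation p = 0.30), and r = 0.11 without the 2 farthest mice.

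For each member, the genes with the most similar pattern of log2(FPKM + 1) were sought among 10129 tested genes with a mean of at least 1 FPKM, as a description over 12 libraries that share the split into groups. The nearest were Sv2b (r = 0.99), a synaptic vesicle protein gene, with Scn2a, and Dpp10 (r = 0.98), an auxiliary subunit of potassium channels, with Scn1a. They were Sun2 (r = 0.98), a nuclear envelope protein gene, with Scn4b, Ust (r = 0.97), a sulfotransferase gene, with Scn3b, and Lsm14b (r = 0.97) with Scn2b. For the members that did not pass the test they were Usp46 (r = 0.94) with Scn3a and Slc24a3 (r = 0.85) with Scn8a. With the group means subtracted, so that only differences between mice of a group count, the nearest genes were Luzp2 (r = 0.97) for Scn2a, Pcyt1a (r = 0.96) for Scn4b, Acot9 (r = 0.95) for Scn3a, Lsm14b (r = 0.95) for Scn2b and Ttc17 (r = 0.94) for Scn3b. Lsm14b was thus the nearest gene to Scn2b on both measures.

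Among related genes, Nalcn, the sodium leak channel, rose with 4.61 to 7.52 FPKM in tMCAO/R mice (median 5.53) and 2.97 to 3.85 FPKM in Sham mice (median 3.45), a log2FC of 0.58 (adjusted p = 4.9e-04, limma). Scn7a, a sodium-sensing relative, did not pass (log2FC 0.16, adjusted p = 0.17, limma). Scn9a, known from sensory neurons, lay below the filter on low values.

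The FGF homologous factors bind the inner tail of alpha subunits and set the voltage at which channels inactivate. Of 4 factors 2 rose and 1 fell, where 17.8% of all genes tested rose and 17.8% fell. The median log2FC of the 4 factors was 0.28, against -0.01 for all genes tested. Fgf12 had 12.8 to 24.5 FPKM in tMCAO/R mice (median 16.0) and 4.99 to 7.71 FPKM in Sham mice (median 6.55), with no overlap (log2FC 1.28, standard error 0.14, adjusted p = 5.1e-06, limma). Fgf14, mutated in human spinocerebellar ataxia, had 4.50 to 7.22 FPKM in tMCAO/R mice (median 5.24) and 2.13 to 2.95 FPKM in Sham mice (median 2.73), and rose as well (log2FC 0.84, adjusted p = 1.9e-05, limma). Fgf11 fell (log2FC -0.70, adjusted p = 0.0035, limma), although its groups overlapped, and Fgf13 had a log2FC of -0.27 and did not pass.

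Proteins of the axon initial segment and node hold the channels in place. Of 10 such genes 5 rose and none fell, where 17.8% of all genes tested rose and 17.8% fell. The median log2FC of the 10 genes was 0.39, against -0.01 for all genes tested. The genes that rose were the adhesion genes Cntn1 (log2FC 0.71) and Nrcam (0.64), the spectrin gene Sptan1 (0.59) and the ankyrin genes Ank2 (0.59) and Ank3 (0.36), the last being the organiser of the initial segment that binds sodium channels. Kcnq3 (log2FC 0.16), a potassium channel of the same membrane, the spectrin gene Sptbn4 (0.07), the adhesion gene Nfasc (0.22) and the microtubule organiser Trim46 (0.42) did not pass.

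Of 12 ligases, binding proteins and mRNA regulators of the channels, 11 were tested, 4 rose and 1 fell. Among all genes tested 17.8% rose and 17.8% fell. Bace1, the protease that cleaves beta subunits, rose (log2FC 0.43), and so did the mRNA-binding Celf4 (0.46), the splicing regulator Rbfox1 (0.54) and Gpd1l (0.72). Of the calmodulin genes, whose product binds the tail of the alpha subunits, Calm2 fell (log2FC -0.37) and Calm3 (-0.18) did not pass. The ubiquitin ligase genes Nedd4l (log2FC 0.18) and Nedd4 (0.29), the collapsin response mediator gene Dpysl2 (-0.30) and the splicing gene Nova2 (0.01) did not pass either. Rest, the repressor of neuronal genes, lay below the filter, with 0.195 to 0.349 FPKM in tMCAO/R mice and 0.373 to 0.503 FPKM in Sham mice, without overlap.

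**Figure D5:**
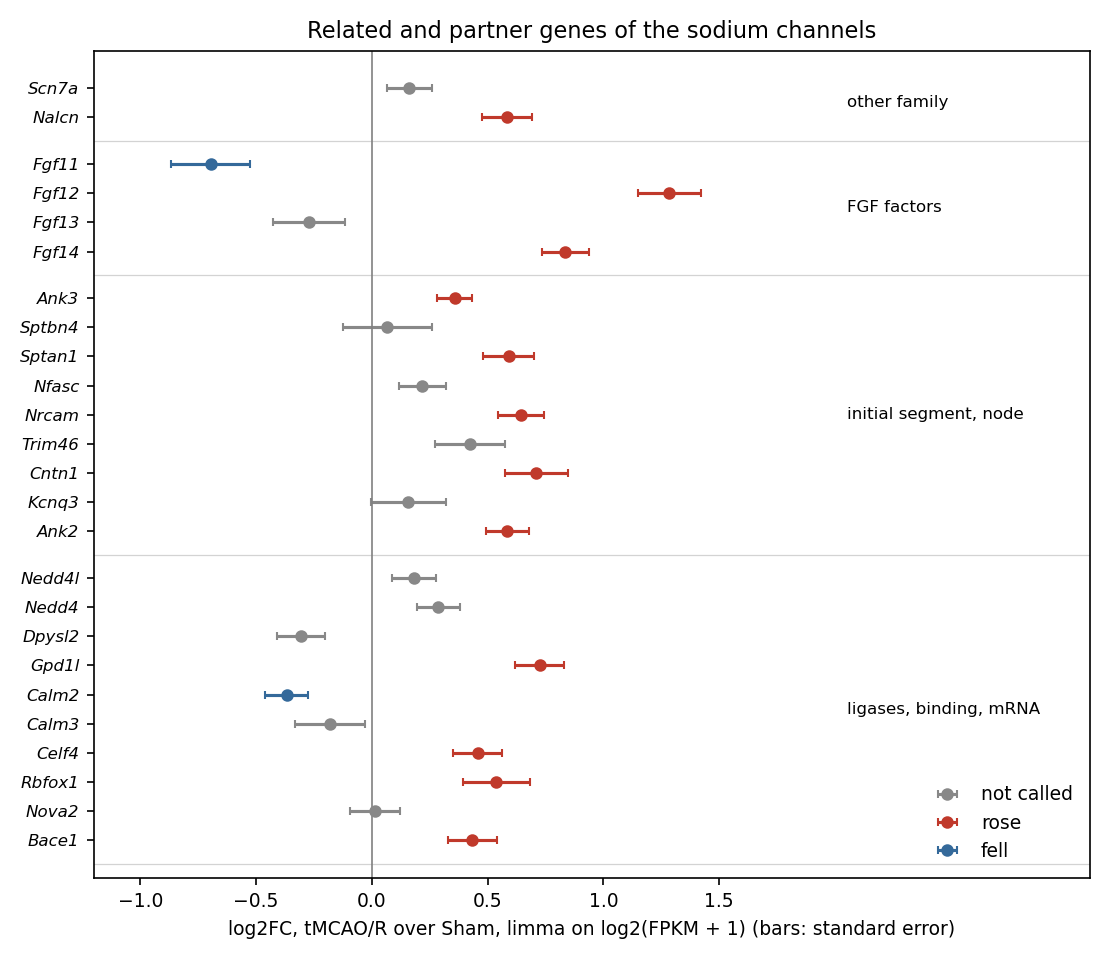
Log2FC of tMCAO/R over Sham with its standard error (limma) for genes related to the sodium channels, the FGF homologous factors, the axon initial segment and node, and the ligases, binding proteins and mRNA regulators, red where the gene rose, blue where it fell and grey where it did not pass. Fgf12 (1.28) and Fgf14 (0.84) lie farthest to the right, and Fgf11 (-0.70) farthest to the left.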

How the data were processed

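Poly(A) mRNA of 6 tMCAO/R and 6 Sham mice was sequenced in paired ends. Per the labels, the authors used fastp, HISAT2 2.2.1 for alignment to GRCm39, HTSeq 2.0.2 for counting and DESeq2 1.24.0 for testing. They deposited FPKM, not counts, and 0 value columns lacked a sample. Annotation release and strand setting are not given in the sources used here.

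A gene was tested if it reached 0.5 FPKM in at least 6 libraries (11743 genes). Groups were compared with limma 3.58.1 in R 4.3.3 (lmFit, eBayes with trend) on log2(FPKM + 1), with Benjamini-Hochberg adjustment, a scale that understates the change of low genes. Two-sided exact permutation tests over 924 arrangements (Python 3.11.15, numpy 2.4.6, pandas 2.3.3, scipy 1.17.1) were called at an adjusted p of 0.05. The FPKM of all 14317 genes were whole multiples of 1 fragment within 1e-05 fragments. The fragments so recovered gave the library totals and entered limma-voom for 13900 genes with 10 or more in at least 6 libraries. Implied gene lengths exceeded 1.1 times the merged exon length in 67.6% of the 14315 genes matched to GENCODE M39 by identifier. The limma and limma-voom tests were also run on simulated data with the same dispersion for all genes and no library that stood apart. Such data cannot show how the tests perform on the spread seen here. Some related and partner genes are not reported here.

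The members and the lists were chosen with earlier results of these data known. All members and listed partner genes could be named, as could 4 genes per marker list (the 2 of smallest p, the 2 of highest FPKM) and the 3 genes most similar to each member per measure. Other pseudocounts, filters, quantile normalization, limma-voom, a replicate block and the omission of single libraries were tried. Merged exon lengths, and limma-voom and partner lists without tMCAO/R mouse 4 were added after seeing the data.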

Additional observations from a re-analysis of the deposited data

Results flagged for a closer look

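In 30 groups of 6 values (FPKM of each member and each share or ratio, per group of mice) the highest or lowest mouse was compared with the rest by its gap over the range, for which chance alone gives about 1 in 20 groups. In 2 groups a mouse lay beyond the critical value of Dixon's test at the 95% level. The share of Scn3a among the alpha transcripts in Sham mice was highest in mouse 5, at 13.98%, with a gap of 0.791 of the range. The share of Scn3b among the beta transcripts in tMCAO/R mice was highest in mouse 4, at 22.1%, with a gap of 0.653 of the range, and this mouse also had the lowest Scn4b of its group and the library that stood apart.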

How the results depend on the processing

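Scn1a, Scn2a and Scn4b rose and Scn3b fell under every alternative run. The count of members that rose was 3 to 4 and the count that fell was 1 with each library left out in turn, over which the log2FC lay between 0.66 and 0.72 for Scn1a, 1.24 and 1.40 for Scn2a, 0.02 and 0.17 for Scn3a, -0.13 and -0.04 for Scn8a, 0.34 and 0.48 for Scn2b, -0.81 and -0.66 for Scn3b and 2.34 and 3.06 for Scn4b. Scn2b (0.40, adjusted p = 0.0107, limma) passed the threshold with quantile normalization (0.47, adjusted p = 0.0022), without Sham mouse 6 (0.46), without tMCAO/R mouse 4 (0.48) and with limma-voom without tMCAO/R mouse 4 (0.49, adjusted p = 5.8e-04). The median log2FC of all genes was -0.01 as reported and farthest from 0 in limma-voom (-0.04). With the replicate number as a block, the members that rose and fell were again 3 and 1, and the log2FC of Scn4b stayed at 2.70 (adjusted p = 0.0014, limma). Mice with the same number did not deviate together (r from -0.12 to 0.22), and the numbers were taken to name mice only. Whether mice with the same number share anything else was not tested.

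The make-up of the beta genes depended on what was summed. In whole fragments, not per length, the difference in the Scn2b share turned to 3.70 percentage points (adjusted p = 0.46) and that in log2 beta over alpha (summed over the 3 beta and 4 alpha members alone, 0.05 as deposited, adjusted p = 0.91) to -0.28 (adjusted p = 0.31), which was -0.22 on merged exon length (adjusted p = 0.46, all exact permutation tests). The cause was not tested. Of the partner lists, 2 FGF homologous factors fell without tMCAO/R mouse 4, and 2 ligases, binding proteins and mRNA regulators fell in limma-voom and without tMCAO/R mouse 4, against 1 in each case above. Among all genes tested 21.2% fell without tMCAO/R mouse 4 and 16.5% fell in limma-voom. The fewest fragments of a member in a library were 173, for Scn4b in Sham mouse 2.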
